A study of Homo sapiens with 6 samples.

Results

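Chromosome 19 carries the densest collection of zinc finger genes in the human genome, and their transcripts were measured here in prostate cancer cells with and without knockdown of CTSZ, the gene of the lysosomal protease cathepsin Z. The members are the protein-coding genes on chromosome 19 of GRCh38 whose symbol is ZNF followed by a number alone. In all, 241 of the 61895 gene entries met this rule, and 205 of the 241 (85.1%) reached a mean of 1 TPM (transcripts counted per length and scaled to a fixed library total) over the 6 libraries. The other 36 are given as values and were not tested. Zinc finger genes with other kinds of symbol, such as ZNF780A, are not members.

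The cells were labelled as PC3, an androgen-independent line derived from a bone metastasis of prostate cancer. A lentiviral vector delivered either a hairpin against CTSZ (shCTSZ, 3 libraries) or a control vector (shControl, 3 libraries), and both groups went through antibiotic selection as stable cells, so the control cells share vector, infection and selection with the knockdown cells. The labels name a pair of media, DMEM among them, with serum, and do not say which library had which. Nor do they give the number of hairpins, clones or separate cultures behind the libraries, so p-values measure the spread between these 3 and 3 libraries, which may be technical.

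CTSZ was measured at 90.55, 94.71 and 93.17 TPM in the shControl libraries and at 21.68, 18.33 and 19.65 TPM in the shCTSZ libraries. It fell by 2.17 on the log2(TPM + 1) scale (SE 0.07, limma, adjusted p = 2.49e-05); the groups did not overlap and all 6 libraries matched their labels. The epithelial keratins KRT8 (1249.47 to 2364.46 TPM) and KRT18 (3096.22 to 3872.56 TPM) were high in every library. KLK3, the gene of prostate-specific antigen, was listed at 0 throughout. The epithelial markers KRT19 and EPCAM were low, at or below 3.64 and 0.22 TPM, and so went against an epithelial label. Markers of leukocytes (PTPRC, CD3E) and endothelium (PECAM1) stayed at or below 0.36 TPM, COL1A1 and PDGFRB of mesenchymal cells at or below 1.69 TPM, and the macrophage marker CD68 between 10.26 and 13.84 TPM. The cells are therefore called cells labelled PC3.

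C2H2 zinc finger proteins read DNA through tandem fingers, each of which contacts a few bases, and most of those on chromosome 19 also carry a KRAB domain at their amino-terminal end. The KRAB domain recruits TRIM28 (KAP1), a scaffold that brings the histone methyltransferase SETDB1, heterochromatin proteins and DNA methylation to the bound site. Many KRAB zinc finger proteins silence transposable elements in this way, and the genes arose by repeated tandem duplication, which is why they lie in clusters of related neighbours. In the proteins translated from the GENCODE annotation, 206 of the 241 members matched a KRAB profile.

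Most members were transcribed at low levels. The median over the 205 members that reached 1 TPM was 5.71 TPM, against 13.5 TPM over all 14874 genes that did. The highest was ZNF146, whose protein consists almost wholly of zinc fingers, with 106.68, 101.34 and 89.62 TPM in shControl and 82.15, 96.47 and 87.21 TPM in shCTSZ. The groups overlapped, and the difference of -0.16 on the log2 scale did not pass the test (limma, adjusted p = 0.17). It was followed by ZNF581, ZNF787, ZNF428 and ZNF580. Such levels were rare, since only 14 of the 205 reached 20 TPM. ZNF787 (47.51, 48.27 and 47.5 TPM in shControl against 48.27, 49.14 and 50.21 TPM) and ZNF428 (44.98, 44.33 and 48.11 TPM against 44.31, 50.52 and 49.16 TPM) did not pass the test. With the GC and length trends removed, ZNF146 passed as lower and ZNF787 and ZNF428 as higher (limma, adjusted p = 0.0158, 0.00537 and 0.0284).

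At the threshold itself, ZNF497 (mean 1.0 TPM) and ZNF132 (mean 1.04 TPM) lay just inside, and ZNF709 (mean 0.853 TPM) and ZNF221 (mean 0.785 TPM) just outside. ZNF132 was listed at 0.97, 0.81 and 0.6 TPM in shControl and at 1.21, 1.29 and 1.38 TPM in shCTSZ, so its groups did not overlap. ZNF221 reached 1.65 TPM in shCTSZ replicate 2 and stayed below 1 TPM in the other 5 libraries. Of the 36 members under the threshold, 10 lie in the telomeric cluster of the long arm, 8 in the cluster next to the centromere on the short arm, and 4 each in the clusters from ZNF653 to ZNF791 and from ZNF175 to ZNF331. ZNF135, ZNF729, ZNF98 and ZNF728 were listed at 0 in every library. ZNF154 (mean 0.07 TPM), ZNF582 (0.11 TPM) and ZNF671 (0.11 TPM), known for promoter methylation in several cancers, were near 0 in both groups; these 7 were named after their values were seen.

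More members were higher than lower after the knockdown. In limma's test, 43 of the 205 members rose in shCTSZ (21.0%) and 9 fell (4.39%), while 153 did not pass the threshold (adjusted p of 0.05). The same test called 34.5% of all 14874 genes, 19.8% as higher and 14.7% as lower. The share of members that rose was therefore close to the background, and the share that fell was below it; whether the members differ from other genes was not tested. The median difference over the 205 members was 0.18 on the log2 scale, against 0.04 over all genes, and single members ranged from -0.56 to 1.09. In all, 149 members had a positive difference and 56 a negative one, beside 8280 and 6594 of all genes. The 3 shControl and 3 shCTSZ values did not overlap for 71 members that were higher and 20 that were lower, 91 in all (50.3% of all genes did not overlap, 29.1% higher and 21.2% lower). A member that reaches 1 TPM only through its shCTSZ values, such as ZNF66, had to be higher there, so these counts describe the 205 and not the 241.

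Summed over the 205 members, the level was 1724.7, 1683.6 and 1625.7 TPM in shControl and 1784.6, 1872.8 and 1861.7 TPM in shCTSZ. Every shCTSZ sum exceeded every shControl sum. The median member of each shControl library lay 0.046, -0.002 and -0.061 from the control mean on the log2 scale, and that of each shCTSZ library 0.157, 0.183 and 0.189 above it. TPM are shares of the measured RNA, and in a bulk culture a shift in the mix of cells and a change of RNA per cell cannot be told apart.

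The counts depended on single libraries. Without shControl replicate 1 the test called 37 members higher and 5 lower, without shControl replicate 2 it called 23 and 5, and without shControl replicate 3 it called 22 and 5. Without shCTSZ replicates 1, 2 and 3 the counts were 27 and 5, 23 and 5, and 19 and 3. Higher calls outnumbered lower calls in each of these fits, as they did over all genes, where 53.1% to 59.2% of calls were higher. The share of all genes called was 25.0% to 29.3% in these fits, against 34.5% with all 6 libraries. That of members was 10.7% to 20.5%, against 25.4%. Scaling by median-of-ratios size factors gave 34 higher and 13 lower, so that 72.3% of the called members were higher in place of 82.7%. Over all genes that share moved as well, to 48.1% in place of 57.4%. A fit after removing the trends over GC content and transcript length within libraries gave 32 higher and 16 lower, or 66.7%. Over all genes that fit gave 55.9%. Of its calls of members, 35 were among the 52 of the fit on the TPM as deposited.

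**Figure D1:**
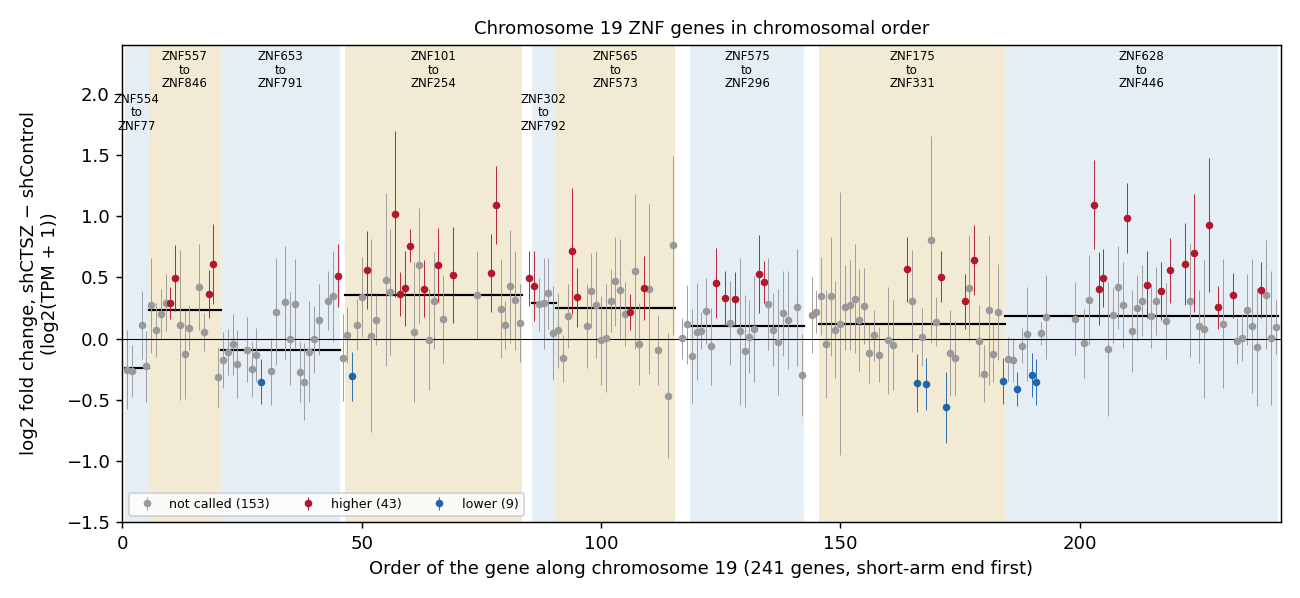
Log2 difference (shCTSZ minus shControl, on log2(TPM + 1)) of each of the 205 members tested, with its 95% interval, in chromosomal order from the short-arm end over all 241 members; shading marks the clusters and black lines their medians. The 2 largest rises, ZNF724 and ZNF460 at 1.09, lie in different clusters, and 7 of the 9 falls lie between ZNF175 and ZNF446.

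With a gap of 1 Mb taken as the boundary, the 241 members fall into 16 stretches along the chromosome, 8 of which hold at least 5 tested members. The cluster next to the centromere on the short arm, from ZNF101 to ZNF254 (chr19:19668796-24129961), holds 37 members of which 29 were tested. In it, 10 rose (34.5%), 1 fell (ZNF14, 3.45%) and 18 did not pass, with a median difference of 0.36 and 27 positive differences of 29. Over all genes, 19.8% rose, 14.7% fell and 8280 of 14874 differences were positive. ZNF66, ZNF626 and ZNF681 (shControl means 0.82, 0.84 and 0.78 TPM) reached 1 TPM only through shCTSZ, so the filter fixed their sign. Its summed level was 181.4, 165.1 and 162.7 TPM in shControl and 208.4, 228.9 and 220.3 TPM in shCTSZ, without overlap. The 10 are ZNF724, ZNF66, ZNF714, ZNF100, ZNF93, ZNF85, ZNF430, ZNF738 (0 fingers found in its translated protein of 137 residues), ZNF257 and ZNF730. Leaving out shControl replicate 1 kept the number at 10, while it was 5 without shControl replicate 2 and without shControl replicate 3, and 6, 6 and 5 without shCTSZ replicates 1, 2 and 3. ZNF14 was called only with shControl replicate 2 left out.

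The next cluster towards the short-arm end, from ZNF653 to ZNF791 (chr19:11483427-12640098), gave other values. Of its 25 members 21 were tested; ZNF791 rose, ZNF700 fell and 19 did not pass, and the median difference was -0.09 with 7 positive differences. Its summed level of 125.8, 120.9 and 120.4 TPM in shControl overlapped that of 117.7, 123.5 and 114.5 TPM in shCTSZ. ZNF791 was called in each fit with 1 library left out, and ZNF700 was not without shControl replicate 2 or shCTSZ replicate 3 (limma, adjusted p = 0.0532 and 0.0529). The cluster's median GC content of 45.4% was close to that of all tested members (45.8%), whereas the centromeric cluster had 41.1%. Further out, the cluster from ZNF557 to ZNF846 (chr19:7069444-9793180) had 4 members that rose (ZNF317, ZNF562, ZNF699 and ZNF561), none that fell and 10 not called among 14 tested, at a median of 0.23. The number that rose was 4, 2 and 2 without shControl replicates 1, 2 and 3 and 4, 1 and 3 without shCTSZ replicates 1, 2 and 3. Over all genes 19.8% rose and 14.7% fell, beside 28.6% and 0.0% in this cluster. From ZNF653 to ZNF791 the shares were 4.76% and 4.76%.

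On the long arm, the cluster from ZNF565 to ZNF573 (chr19:36182060-37817300) had 4 members that rose (ZNF570, ZNF875, ZNF260 and ZNF529) and none that fell among 22 tested, at a median of 0.25. This count was 3, 0 and 0 without shControl replicates 1, 2 and 3, and 1, 3 and 0 without shCTSZ replicates 1, 2 and 3. In the cluster from ZNF575 to ZNF296 (chr19:43525497-45076588), 5 of 22 tested members rose (ZNF234, ZNF226, ZNF45, ZNF155 and ZNF222) and none fell, at a median of 0.10. There the count was 3 without each shControl library and 1, 1 and 2 without shCTSZ replicates 1, 2 and 3. The 5 tested members from ZNF302 to ZNF792 (chr19:34677639-34964049) had a median of 0.29, and ZNF302 alone rose; the count was 1, 0 and 0 without shControl replicates 1, 2 and 3 and 2, 0 and 0 without shCTSZ replicates 1, 2 and 3. Between ZNF175 and ZNF331 (chr19:51571298-53580269), 4 members rose (ZNF677, ZNF808, ZNF320 and ZNF347) and 4 fell (ZNF888, ZNF600, ZNF83 and ZNF331) among 35 tested, at a median of 0.12. The median was 0.03 without shControl replicate 3. The number that fell there was 1 without shControl replicate 1 or shCTSZ replicate 3 and 2 without each of the other 4 libraries.

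The cluster at the telomere of the long arm, from ZNF628 to ZNF446 (chr19:55476332-58481230), is the largest, with 57 members of which 47 were tested. In it 13 rose (27.7%) and 3 fell (6.38%), at a median of 0.19, beside 19.8% and 14.7% of all genes. A boundary of 0.5 Mb divided it into 2 pieces. From ZNF264 to ZNF446 (chr19:57191500-58481230), 13 of 37 tested members rose (35.1%), none fell and 33 had positive differences, at a median of 0.27. Among the 33 are ZNF497 and ZNF132 (shControl means 0.94 and 0.79 TPM), which reached 1 TPM only through shCTSZ, so the filter fixed their sign. The 13 that rose are ZNF460, ZNF772, ZNF417, ZNF552, ZNF776, ZNF543, ZNF304, ZNF550, ZNF134, ZNF551, ZNF256, ZNF329 and ZNF584. Their piece summed to 243.2, 257.6 and 226.5 TPM in shControl and to 297.1, 289.9 and 296 TPM in shCTSZ, without overlap. Without shControl replicates 1, 2 and 3 the number that rose was 10, 8 and 7, and without shCTSZ replicates 1, 2 and 3 it was 8, 7 and 4; none fell in any of these fits. From ZNF628 to ZNF835 (chr19:55476332-56671783), none of 10 tested members rose and 3 fell (ZNF524, ZNF580 and ZNF581), at a median of -0.11. The sums ran the other way here, from 224.1, 229.4 and 245.2 TPM in shControl to 203.4, 204.2 and 215.9 TPM in shCTSZ. The number that fell was 3, 2 and 1 without shControl replicates 1, 2 and 3 and 2 without each shCTSZ library. Median GC content was 66.1% in this piece and 49.4% in the other, and with the GC and length trends removed the piece rich in GC had a median of 0.02 with 1 member higher and 1 lower, while the other had 0.22 with 9 higher and none lower.

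**Figure D2:**
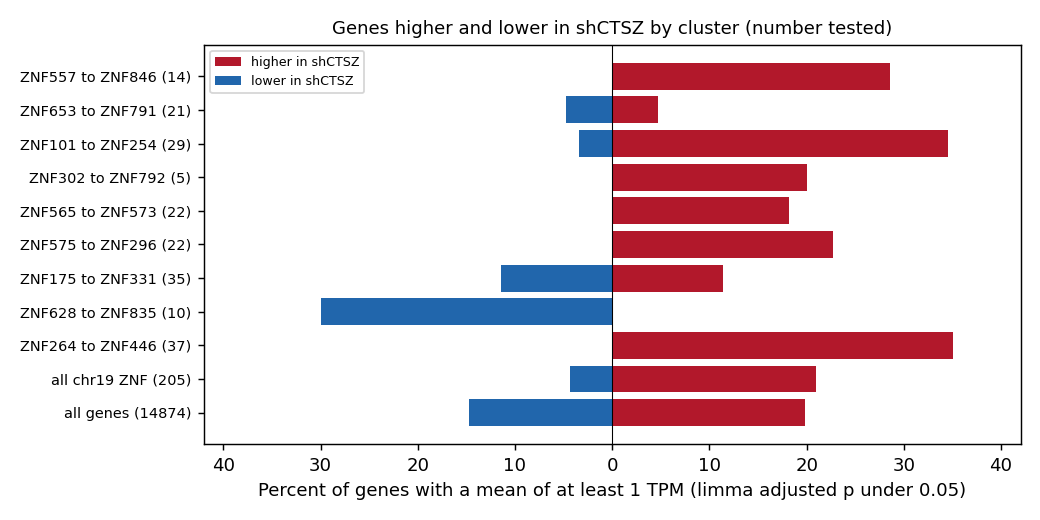
Percent of tested genes that rose (red bars, right of 0) or fell (blue bars, left of 0) in shCTSZ, for each cluster with at least 5 tested members, with the telomeric cluster divided as in the text, and for all members and all genes. The cluster from ZNF101 to ZNF254 (34.5%) and the piece from ZNF264 to ZNF446 (35.1%) have the longest bars for members that rose, and the piece from ZNF628 to ZNF835 has the longest for members that fell.

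Other settings moved the cluster values. With the GC and length trends removed, the cluster from ZNF653 to ZNF791 had 2 members higher and 5 lower at a median of -0.16, that from ZNF175 to ZNF331 had 3 and 6 at 0.02, that from ZNF565 to ZNF573 had 2 and 1 at 0.11, that from ZNF575 to ZNF296 had 3 and 0 at 0.06, and that from ZNF101 to ZNF254 had 7 and 1 at 0.24. Without a filter on low values, which adjusts over more genes, the number that rose was 4 from ZNF101 to ZNF254, 5 from ZNF264 to ZNF446, 1 from ZNF575 to ZNF296 and 0 from ZNF565 to ZNF573. Median-of-ratios scaling left 1 rise from ZNF565 to ZNF573, and quantile normalisation 2 from ZNF575 to ZNF296. Among members with a mean of at least 5 TPM the median from ZNF175 to ZNF331 turned to -0.05, with 2 higher and 4 lower. Differences between clusters were not tested, and the clusters stand here as descriptions. Other protein-coding genes lie within the same stretches. From ZNF557 to ZNF846, 2 of 33 such genes rose and 8 fell, at a median of -0.13, and from ZNF575 to ZNF296 none of 18 rose and 10 fell, at a median of -0.24. The 2 that rose in the first of these stretches are MCOLN1, a lysosomal calcium channel, and HNRNPM, a splicing factor. From ZNF264 to ZNF446, 2 of 10 rose and none fell, at a median of 0.25. These are ZNF587B, itself a zinc finger gene, and an unnamed entry (ENSG00000268750). Both overlap the member ZNF586 on the same strand, and the unnamed entry overlaps ZNF587 too, so they may share reads with members. The only other protein-coding entry tested in the centromeric cluster, ENSG00000283201, rose too; it overlaps ZNF724 on the same strand, so the pair shares reads.

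The largest rises on the log2(TPM + 1) scale came from the centromeric cluster and the telomeric piece. The stretches upstream of the start sites of 4 such members and of ZNF700, a member that fell, are shown because neighbours in a cluster are duplicates and their promoters can be read side by side. They come from RefSeq (GRCh38.p14), run 5' to 3' on the gene's strand and hold up to 250 bases upstream of the start. Capitals mark matches on either strand to 3 short motifs, and adjacent matches run together. The Sp1 box, bound by factors of the Sp1 family, was searched as GGGCGG. The CCAAT box, bound by NF-Y, was searched by the 5 letters of its name. The site of ETS factors was searched as CCGGAAG.
ZNF724, chr19:23250395-23250644, minus strand: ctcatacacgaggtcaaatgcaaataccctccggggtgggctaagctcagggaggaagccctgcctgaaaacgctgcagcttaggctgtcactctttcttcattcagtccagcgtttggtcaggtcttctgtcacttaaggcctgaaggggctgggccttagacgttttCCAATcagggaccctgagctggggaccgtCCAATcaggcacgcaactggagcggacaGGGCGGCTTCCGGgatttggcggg
ZNF66, chr19:20776054-20776303, plus strand: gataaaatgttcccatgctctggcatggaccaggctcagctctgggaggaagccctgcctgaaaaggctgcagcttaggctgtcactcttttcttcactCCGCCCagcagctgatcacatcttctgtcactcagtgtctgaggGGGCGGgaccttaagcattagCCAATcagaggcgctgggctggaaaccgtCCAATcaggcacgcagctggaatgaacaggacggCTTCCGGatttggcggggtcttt
ZNF460, chr19:57279732-57279981, plus strand: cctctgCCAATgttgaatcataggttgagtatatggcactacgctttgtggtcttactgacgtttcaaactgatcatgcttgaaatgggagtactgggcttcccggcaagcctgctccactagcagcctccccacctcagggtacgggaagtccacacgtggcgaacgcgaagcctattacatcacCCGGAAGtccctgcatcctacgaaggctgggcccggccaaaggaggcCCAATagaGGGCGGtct
ZNF772, chr19:57477571-57477816, minus strand: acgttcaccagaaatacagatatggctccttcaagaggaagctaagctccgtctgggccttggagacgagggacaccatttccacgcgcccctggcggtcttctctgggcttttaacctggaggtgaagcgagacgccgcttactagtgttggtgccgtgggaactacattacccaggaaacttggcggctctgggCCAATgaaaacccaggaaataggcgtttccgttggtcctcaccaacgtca
ZNF700, chr19:11924857-11925067, plus strand: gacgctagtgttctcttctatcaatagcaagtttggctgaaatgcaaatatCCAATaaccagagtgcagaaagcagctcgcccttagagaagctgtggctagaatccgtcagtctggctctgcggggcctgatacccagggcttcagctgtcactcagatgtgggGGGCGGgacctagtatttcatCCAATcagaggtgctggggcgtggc

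The windows of ZNF724 and ZNF66, both from the centromeric cluster, each hold 2 CCAAT boxes and an ETS site close to the start. ZNF460 also has 2 CCAAT boxes and an ETS site, ZNF772 has a single CCAAT box, and ZNF700 has 2 CCAAT boxes and no ETS site. Sp1 boxes number 1 in ZNF724, 2 in ZNF66, 1 in ZNF460, 1 in ZNF700 and 0 in ZNF772. RefSeq windows from 250 bases before to 50 after the start matched 210 of the 241 members and 183 of the 205 tested. Of those 183, 68.9% held an Sp1 box, 54.6% a CCAAT box and 45.9% an ETS site, against 44.6%, 35.7% and 10.7% of all 27305 promoters. The cyclic AMP response element, TGACGTCA, was in 3.83% of the 183 and in 1.98% of all promoters. A CCAAT box was present in all 25 windows matched from ZNF101 to ZNF254, and in 90.5% of the 21 from ZNF653 to ZNF791, where a single member rose. ETS sites were in 68.0% of the first and 9.52% of the second, in 62.1% of 29 windows from ZNF175 to ZNF331, where 4 members rose and 4 fell, and in 23.8% and 31.6% from ZNF565 to ZNF573 and from ZNF575 to ZNF296, where 4 and 5 rose and none fell. Among members that rose, 53.8% of 39 windows held an ETS site, against 44.9% of 138 windows of members not called. Duplicated neighbours are not independent windows, so no test was made.

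Among the members that rose, ZNF724 (ENSG00000196081, chr19:23221599-23250390, minus strand) stood at 3.14, 4.03 and 2.74 TPM in shControl and at 7.22, 8.57 and 8.56 TPM in shCTSZ. All shCTSZ values lay above all shControl values, and the difference was 1.09 on the log2 scale (SE 0.14, limma, adjusted p = 0.0017). Its protein has 14 fingers and a KRAB match; 48.3% of its 50-base words occur in other genes, so its level rests in part on how reads were divided between copies. ZNF66 (ENSG00000160229, chr19:20776304-20807322), with the same number of fingers, was at 1.1, 0.64 and 0.72 TPM in shControl and at 1.7, 4.54 and 2.27 TPM in shCTSZ. The groups did not overlap, but shCTSZ replicate 2 stood apart from the others and the call (difference 1.02, limma, adjusted p = 0.0324) was lost without any of 5 libraries: adjusted p was 0.0547, 0.0955 and 0.0942 without shControl replicates 1, 2 and 3, and 0.0527 and 0.0705 without shCTSZ replicates 2 and 3. ZNF66 was also lost without a filter on low values (0.0938) and with a pseudocount of 5 TPM, where its difference was 0.41 (0.0512).

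ZNF714 (ENSG00000160352, chr19:21082159-21125270), in the same cluster but without a KRAB match, was at 12.52, 12.04 and 12.13 TPM in shControl and at 21.55, 21.93 and 20.58 TPM in shCTSZ. The libraries of each group were close together, and the difference of 0.76 (SE 0.06) had the smallest adjusted p of any member (limma, 0.000302). ZNF100 was at 3.43, 2.84 and 2.74 TPM against 5.32, 5.5 and 4.37 TPM, a difference of 0.60 (limma, adjusted p = 0.0117). ZNF93, which represses L1 retrotransposons, was at 8.94, 6.52 and 6.11 TPM against 11.58, 10.19 and 11.05 TPM, a difference of 0.56 (limma, adjusted p = 0.0187). ZNF91, its relative that represses SVA elements, was at 8.07, 9.03 and 8.27 TPM against 7.65, 10.43 and 13.17 TPM; the groups overlapped and the difference did not pass (0.24, limma, adjusted p = 0.309). ZNF93 and ZNF91 were named for their described roles after their values were seen.

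In the telomeric piece, ZNF460 (ENSG00000197714, chr19:57280051-57293569, plus strand) was at 1.95, 1.35 and 1.5 TPM in shControl and at 4.6, 3.84 and 5.21 TPM in shCTSZ. Its difference was 1.09 on the log2(TPM + 1) scale (SE 0.15, limma, adjusted p = 0.0026). On that scale it and ZNF724 had the largest differences of the called members, but with a pseudocount of 0.1 TPM that of ZNF66 was larger. ZNF772 (ENSG00000197128, chr19:57466663-57477570, minus strand) was at 1.91, 2.18 and 1.85 TPM against 5.38, 4.49 and 4.83 TPM, a difference of 0.98 (SE 0.12, limma, adjusted p = 0.00151). Neither gene's groups overlapped, and both are low, so the pseudocount of 1 TPM makes the log2 difference smaller than the ratio of the TPM values. ZNF417, described with its near copy ZNF587 as a repressor of HERV-K proviruses, was at 2.89, 3.16 and 1.61 TPM against 4.15, 6.3 and 6.71 TPM. The difference was 0.93 (limma, adjusted p = 0.0204), and 30.5% of its 50-base words are shared with ZNF587. The call was lost without shControl replicate 3 (limma, adjusted p = 0.0549) and without shCTSZ replicates 2 and 3 (0.0783 and 0.0845), and without a filter on low values (0.0704).

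ZNF552 and ZNF776 rose with less certainty. ZNF552 was at 3.08, 3.59 and 3.06 TPM against 8.39, 4.37 and 5.49 TPM, with shCTSZ replicate 1 well above the other 2 (difference 0.70, limma, adjusted p = 0.0354). It was lost without any library except shCTSZ replicate 2, at adjusted p of 0.0570 to 0.111 in limma, and also without a filter on low values (0.108) and without the variance trend (0.0523). ZNF776 was at 4.73, 4.25 and 5.89 TPM against 6.93, 9.28 and 8.0 TPM (difference 0.61, limma, adjusted p = 0.0157). It was lost without shControl replicates 1 and 2 and shCTSZ replicates 2 and 3, at adjusted p of 0.0557 to 0.0621 in limma, and without a filter (0.0516).

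**Figure D3:**
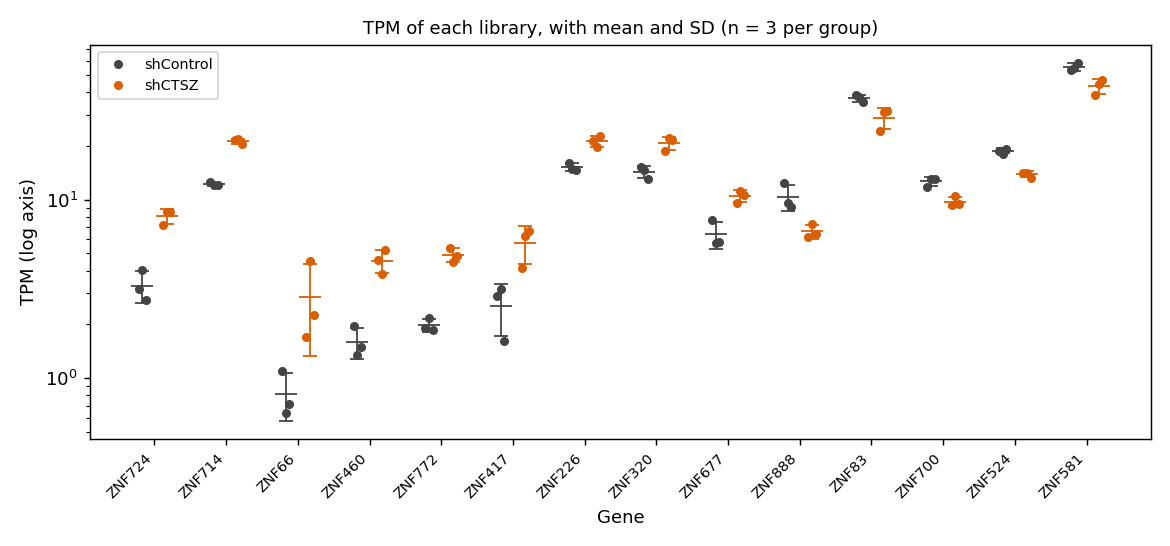
TPM of each library on a log axis, with mean and SD (n = 3 per group), for 14 members that rose or fell; shControl in grey and shCTSZ in orange. The groups do not overlap in any of the 14, and ZNF66 has the widest spread within shCTSZ on this axis.

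Rises outside those stretches included ZNF677, at 7.68, 5.73 and 5.83 TPM against 9.61, 11.16 and 10.68 TPM (difference 0.64, limma, adjusted p = 0.00734). ZNF808, in the same cluster, which is needed for pancreas development and represses MER11 elements, was at 3.19, 3.05 and 3.49 TPM against 5.63, 4.64 and 5.61 TPM (difference 0.57, limma, adjusted p = 0.00907). ZNF226 was at 16.14, 14.83 and 14.72 TPM against 21.34, 19.81 and 22.92 TPM (difference 0.46, limma, adjusted p = 0.00395). In each of these 3 all shCTSZ values were above all shControl values, and every alternative fitted left them past the threshold. Of the 50-base words of ZNF808, 22.3% occur in other genes and 12.3% in ZNF701, which it overlaps on the same strand. No alternative addressed how reads were divided between them. ZNF320 was called at a difference of 0.50 (limma, adjusted p = 0.00535), but 69.4% of its 50-base words occur in ZNF468, so the pair is hard to separate. ZNF791, the exception in its cluster, was at 7.47, 6.77 and 6.69 TPM against 12.17, 9.89 and 9.27 TPM (difference 0.51, limma, adjusted p = 0.0119); it overlaps ZNF490 on the opposite strand, and without strand the reads of such a pair cannot be told apart. ZNF562 rose by 0.61 (limma, adjusted p = 0.0145), a call lost at adjusted p of 0.0611, 0.0606 and 0.0581 without shControl replicates 2 and 3 and shCTSZ replicate 2. ZNF317 was at 32.27, 28.85 and 30.03 TPM against 37.74, 36.99 and 37.45 TPM (difference 0.29, limma, adjusted p = 0.00725), and its adjusted p was 0.0514 with the GC and length trends removed. ZNF507, which stands alone at its place on the long arm, was at 6.79, 6.24 and 5.5 TPM against 8.58, 9.33 and 9.27 TPM (difference 0.49, limma, adjusted p = 0.00774). ZNF260 was the only called member whose groups touched, with 7.67 TPM in both shControl replicate 1 and shCTSZ replicate 2.

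The remaining members named by the rule for their clusters were less stable. ZNF302 rose by 0.43, ZNF875 by 0.22, ZNF570 by 0.41 and ZNF234 by 0.53 (limma, adjusted p = 0.0319, 0.0324, 0.0258 and 0.0221). ZNF302 was lost without shControl replicates 2 and 3 or shCTSZ replicates 2 and 3, at adjusted p of 0.0874 to 0.118 in limma. ZNF875 was lost without any library except shCTSZ replicate 1, at 0.0546 to 0.101, and ZNF570 without shControl replicates 2 and 3 or shCTSZ replicates 1 and 3, at 0.0634 to 0.0762. ZNF234 was lost without shCTSZ replicates 1 and 2, at 0.0677 and 0.0807. Without a filter on low values all 4 were lost, at 0.0886 for ZNF302, 0.0620 for ZNF875, 0.0798 for ZNF570 and 0.0699 for ZNF234. ZNF302 was also lost with the GC and length trends removed (0.0584) and without the variance trend (0.0528), and ZNF875 with median-of-ratios scaling (0.0593), with quantile normalisation (0.0554) and without the variance trend (0.0520).

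The 9 members that fell did so by less. ZNF888 (ENSG00000213793, chr19:52904417-52923481), a KRAB member with 17 fingers, was at 12.35, 9.55 and 9.16 TPM in shControl and at 6.21, 7.32 and 6.4 TPM in shCTSZ. It fell by 0.56 on the log2(TPM + 1) scale, the largest fall on that scale (limma, adjusted p = 0.0131), with no overlap between groups; without shCTSZ replicates 1 and 3 its adjusted p was 0.0556 and 0.0582. ZNF524 (ENSG00000171443, chr19:55600022-55603138), a 4-finger protein without a KRAB match that has been described at telomeres, was at 18.83, 18.17 and 19.38 TPM against 14.17, 14.2 and 13.26 TPM. It fell by 0.41 on the log2 scale (SE 0.06, limma, adjusted p = 0.00288), and every fit with 1 library left out called it. ZNF524 has a GC content of 66.1%. With replicate number as a block and the GC and length trends removed, its difference was -0.23 and the call was lost (limma, adjusted p = 0.0837). The gene overlaps FIZ1 on the opposite strand. ZNF581 and ZNF580, adjacent genes without a KRAB match, fell from 53.46, 54.53 and 58.78 TPM to 38.66, 44.47 and 47.19 TPM and from 41.02, 46.33 and 50.26 TPM to 36.74, 37.76 and 36.39 TPM. Their transcripts overlap on the same strand, and removing the GC and length trends left both short of the threshold (limma, adjusted p = 0.0934 and 0.279). Without shControl replicate 3 the adjusted p was 0.0574 for ZNF581, and ZNF580 was called only with shControl replicate 1 left out, the other 5 giving 0.0515 to 0.0769. Without a filter on low values ZNF580 was lost too (0.0558).

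ZNF331, an imprinted KRAB member, was at 20.02, 19.25 and 18.25 TPM in shControl and at 13.44, 16.1 and 15.15 TPM in shCTSZ (difference -0.35, limma, adjusted p = 0.0153). It was lost without shControl replicates 1 and 2 and shCTSZ replicate 3 (0.0546, 0.0557 and 0.0502). ZNF83 was at 38.69, 37.54 and 35.33 TPM against 24.39, 30.94 and 31.37 TPM, ZNF600 at 14.34, 11.61 and 13.8 TPM against 10.23, 9.93 and 9.78 TPM, and neither pair of groups overlapped (limma, adjusted p = 0.0299 and 0.0179). ZNF83 was lost without each shControl library and without shCTSZ replicate 2 (0.0505 to 0.0957), and ZNF600 without any library except shControl replicate 2 (0.0523 to 0.0686). ZNF700 was at 11.86, 13.15 and 13.08 TPM against 9.29, 10.45 and 9.47 TPM (limma, adjusted p = 0.0129; 0.0532 and 0.0529 without shControl replicate 2 and shCTSZ replicate 3). ZNF14 was at 7.28, 6.5 and 7.25 TPM against 5.3, 5.68 and 5.42 TPM (limma, adjusted p = 0.0299) and was called only with shControl replicate 2 left out, the other 5 giving 0.0631 to 0.0828. Without a filter on low values, ZNF14 and ZNF83 were lost (0.0720 and 0.0822), as were ZNF14 at a mean of at least 5 TPM (0.0614) and ZNF83 without the variance trend (0.0547).

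Some members are known for particular roles and were named for them after their values were seen. ZNF274, which binds the 3' ends of zinc finger genes and brings SETDB1 there, was at 20.08, 19.33 and 17.04 TPM in shControl and at 19.51, 18.47 and 17.53 TPM in shCTSZ, an overlap of groups (difference -0.02, limma, adjusted p = 0.858). ZNF473, a factor in histone pre-mRNA processing, was at 18.53, 16.23 and 17.73 TPM against 21.93, 19.52 and 20.16 TPM; the groups did not overlap, but the difference of 0.22 missed the threshold (limma, adjusted p = 0.0554). ZNF350, a partner of BRCA1 in repression, ranged from 2.9 to 12.81 TPM within shCTSZ and was not called (limma, adjusted p = 0.859).

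Members with and without a KRAB match were counted apart. Of the 176 tested members with a match, 38 rose (21.6%) and 5 fell (2.84%), at a median of 0.22, beside 19.8% and 14.7% of all genes. Their summed level was 1168.9, 1141.3 and 1067.1 TPM in shControl and 1269.4, 1333.3 and 1308.6 TPM in shCTSZ. Of the 29 without a match, 5 rose (17.2%: ZNF714, ZNF507, ZNF260, ZNF134 and ZNF329) and 4 fell (13.8%: ZNF83, ZNF524, ZNF580 and ZNF581), at a median of 0.04. Their sums overlapped (555.8, 542.3 and 558.6 TPM against 515.2, 539.5 and 553.1 TPM). The 29 had a higher median GC content (61.4% against 45.6%) and a higher median level (13.5 against 5.28 TPM), and the part of these in the counts was not tested. By number of fingers, 10 rose and 3 fell (19.6% and 5.88%) among 51 members with at most 9 (median 0.11). Among 90 with 10 to 14, 22 rose and 2 fell (24.4% and 2.22%, median 0.20). Among 64 with 15 or more, 11 rose and 4 fell (17.2% and 6.25%, median 0.22). The shares that rose in all these groups lay between 17.2% and 24.4%, around the 19.8% of all genes. Differences between the groups were not tested.

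**Figure D4:**
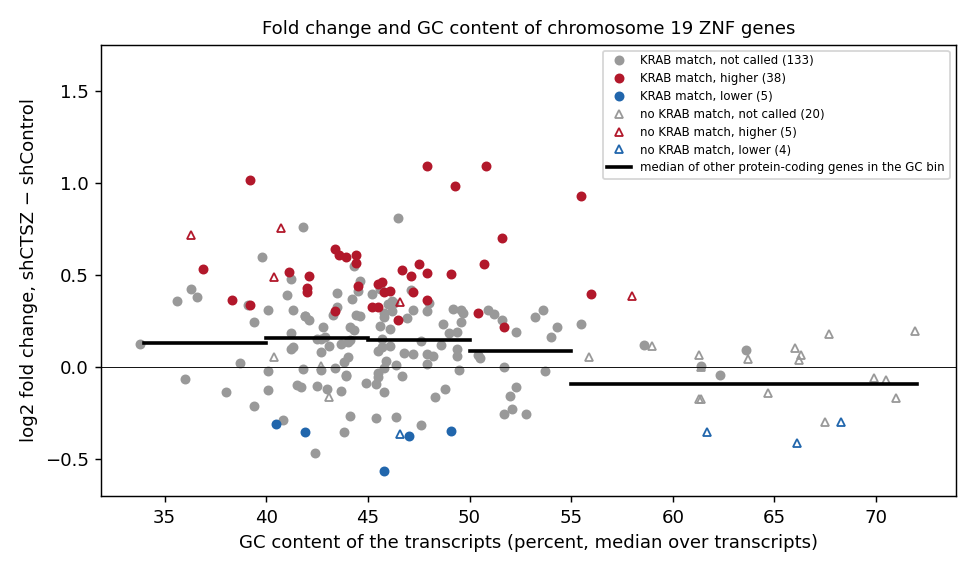
Log2 difference (shCTSZ minus shControl) of each tested member against the GC content of its transcripts in percent; filled circles have a KRAB match, open triangles do not, colours give the call, and black lines give the median of other protein-coding genes in each range of GC. The black line falls from 0.16 between 40% and 45% GC to -0.09 at 55% or more, where most members have no KRAB match.

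GC content moved with the result over all genes, so the members were set beside other protein-coding genes of like GC. Below 40% GC, 5 of 16 members rose (31.2%) and none fell, at a median of 0.35, beside 27.4% higher and 9.33% lower among 1083 other genes with a median of 0.13. Between 40% and 45% GC, 13 of 68 members rose (19.1%) and 2 fell, at a median of 0.17, beside 33.0% higher and 6.37% lower among 2512 other genes with a median of 0.16. Between 45% and 50% GC, 17 of 71 members rose (23.9%) and 4 fell, at a median of 0.24, beside 32.4% and 7.7% of 2155 other genes with a median of 0.15. Between 50% and 55% GC, 5 of 22 members rose (22.7%) and none fell, at a median of 0.20, beside 26.1% and 10.9% of 1880 other genes with a median of 0.09. At 55% GC or more, 3 of 28 members rose and 3 fell, at a median of 0.04, beside 10.1% and 27.1% of 4061 other genes with a median of -0.09. The members were also set beside other genes by level. Between 1 and 2 TPM, 5.0% of 20 members rose and 0.0% fell, beside 1.78% and 8.08% of other protein-coding genes. Between 2 and 5 TPM, where 70 members lie, 13 rose and none fell (18.6% and 0.0%), beside 12.4% and 8.84% of other protein-coding genes. Between 5 and 10 TPM, 18 of 67 members rose and 2 fell (26.9% and 2.99%), beside 23.8% and 9.25% of other genes. Between 10 and 20 TPM, 8 of 34 members rose and 4 fell (23.5% and 11.8%), beside 30.9% and 10.6% of other genes. Between 20 and 100 TPM, 3 of 14 members rose and 3 fell, beside 25.8% and 17.2% of other genes.

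Zinc finger genes elsewhere were counted in the same way. Of 198 tested ZNF genes on other chromosomes, 37 rose (18.7%) and 12 fell (6.06%), at a median of 0.15. Among 13 tested zinc finger genes of chromosome 19 under other kinds of symbol, 4 rose (ZNF780A, ZNF780B, ZNF585B and ZNF587B) and 1 fell (ZFP36, whose fingers are of the CCCH and not the C2H2 type), at a median of 0.43. The other protein-coding genes of chromosome 19 ran the other way, with 70 of 764 higher (9.16%) and 244 lower (31.9%), at a median of -0.12 and a median GC content of 61.1%. None of these differences between sets was tested.

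All 35 genes of a list of partners of KRAB zinc finger proteins in silencing were tested; 9 rose (25.7%) and 4 fell (11.4%), at a median of 0.09, beside 19.8% and 14.7% of all genes. Whether the list differs from other genes was not tested. TRIM28, the shared corepressor, was at 526.13, 472.74 and 509.03 TPM in shControl and at 510.81, 501.91 and 528.4 TPM in shCTSZ, with overlapping groups (difference 0.03, 95% interval -0.07 to 0.14, limma, adjusted p = 0.605). With the GC and length trends removed its difference was 0.17 (limma, adjusted p = 0.0325). SETDB1 also overlapped, at 16.51, 24.63 and 22.53 TPM against 20.49, 20.65 and 23.48 TPM (limma, adjusted p = 0.865). The genes of the list that rose were CBX1 and CBX5, which encode heterochromatin proteins, DNMT1 and UHRF1 of maintenance DNA methylation, PPHLN1 of the HUSH complex, RBBP4, SMARCAD1, SMCHD1 and TRIM33. UHRF1 was at 65.56, 64.34 and 59.74 TPM against 100.56, 98.13 and 101.81 TPM (difference 0.66, limma, adjusted p = 0.000251), and RBBP4, a histone chaperone subunit, at 76.45, 75.39 and 73.9 TPM against 111.53, 123.36 and 119.04 TPM (difference 0.64, limma, adjusted p = 0.000266). RESF1, which binds SETDB1 and supports silencing of retroelements, was at 35.57, 37.53 and 34.55 TPM against 17.72, 17.32 and 17.38 TPM and fell by 1.00 on the log2 scale (limma, adjusted p = 9.97e-05). CHD4 and MTA1, subunits of the NuRD complex, also fell. The groups did not overlap for UHRF1, RBBP4 or RESF1, and these 3 were called in every alternative.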

How the data were processed

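RNA was sequenced from 3 shControl and 3 shCTSZ libraries. The authors deposited a table of TPM values for 61895 gene entries, made with fastp, RSEM and the build GRCh38.p13, per the submitters' processing notes; the aligner, annotation release and strand setting were not given in the sources used here. TPM divide by transcript length and library total, so read depth is unknown and no counting interval was computed. RSEM splits reads of near-identical copies by estimation. All 6 columns were matched to samples by their names.

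Positions, gene types, transcript GC content and length came from GENCODE 29 (58366 of the entries matched). Fingers and KRAB boxes were counted in the translated coding sequences, a KRAB match being a positive score against a 40-residue profile built from these proteins. The 14874 genes whose mean reached 1 TPM were fitted on log2(TPM + 1) in limma 3.58.1 (R 4.3.3), with group as the only term, a trend of variance on mean, and Benjamini-Hochberg adjustment over all of them at 0.05. On simulated data with the same 14874 genes the fit recovered 53%, 74% and 91.6% of genes changed by 1.5-, 2- and 4-fold, and 4.19% of calls were false. Each of the 5 runs changed only 200 genes, with the fold added on the log2(TPM + 1) scale. The data had 34.5% of genes called, so these rates need not hold for them. Figures were drawn with matplotlib 3.10.9. A new cluster began where the gap to the next member exceeded 1 Mb, over all 241 members.

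The members and lists were chosen with earlier results of these data known. Genes named were CTSZ; the 12 largest rises and falls among called members without overlap; up to 2 called members of smallest adjusted p in each cluster; the 5 highest members; the 2 nearest either side of 1 TPM; and TRIM28, SETDB1 and up to 6 called genes of the silencing list. Members listed only by name beside a count, and those said to be chosen after their values were seen, fall outside that rule. Alternatives covered pseudocount, filter, scaling, GC and length trends, variance model, library weights, replicate number as a block, each library left out and the cluster gap. Values of a few genes of the marker and silencing lists are not reported here.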

Additional observations from a re-analysis of the deposited data

How the results depend on the processing

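The median difference of the members stayed positive in every alternative fitted, while its size moved with several of them: 0.11 with a pseudocount of 5 TPM, 0.12 without a filter on low values, 0.14 with a mean of at least 5 TPM, 0.13 with median-of-ratios scaling, and 0.12 with the GC and length trends removed, alone or with the replicate block, against 0.18 as reported. Without a filter, 25 members passed the threshold and 19 were higher, with 32105 genes in the adjustment in place of 14874. With the GC and length trends removed, 16 members were lower; with the replicate block as well, 29 passed and 20 were higher. Leaving out 1 library at a time gave 22 to 42 members past the threshold, 19 to 37 higher and 3 to 5 lower, with fewer samples in each fit; over all genes the block gave 4026 calls against 5135. Deviations of same-numbered libraries correlated at -0.09, -0.02 and -0.04, and those of differently numbered libraries at -0.032 to 0.07. They gave no sign that the numbers of the labels pair the libraries. With 3 libraries per group this cannot settle whether the libraries were prepared in pairs. With the replicate number as a block 36 members passed, 35 of them among the 52. Over the named genes, 713 comparisons with an alternative stayed on the same side of the threshold, 104 lost the call and 8 gained it. None changed sign where either fit called the gene. A change of sign in a gene that neither fit called counts among the 713. With a gap of 2 Mb, 5 clusters held at least 5 tested members, against 8. Counting clusters under the alternative fits was added after the data were seen. Read depth is unknown, and low TPM of members between 1 and 2 TPM limit what could be called there.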
